A study of Arabidopsis thaliana with 6 samples.

Results

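The 8 genes described here are markers of the response to cold, drought and abscisic acid in Arabidopsis thaliana. They are the dehydrins LTI30, COR47 and RAB18, the late embryogenesis abundant protein LEA4-5, the chloroplast cold proteins COR15A and COR15B, and the desiccation genes RD29A and RD29B. They were chosen by name as 8 of the 22746 probe sets on ATH1 arrays that are not controls. The platform annotation pairs 5 of these probe sets with 1 gene each, namely those of LTI30, COR47, LEA4-5, COR15A and COR15B. The annotation used here lists no gene for the probe sets 248337_at, 248352_at and 247095_at, and their names RD29A (AT5G52310), RD29B (AT5G52300) and RAB18 (AT5G66400) come from the list by which the 8 were chosen. The RefSeq gene table gives LTI78 and LTI65 as the symbols of RD29A and RD29B.

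Transcripts were profiled in whole seedlings of the reference accession Col-0 and of atsf1-2, a mutant in the Col-0 ecotype of AtSF1, a pre-mRNA splicing protein. There were 3 biological replicates per genotype, each on 1 array, and all seedlings grew on agar for 9 days at 23 C with 16 h of light and 8 h of dark. No group was given cold, drought or abscisic acid, so every value is a level in seedlings without treatment. The labels name a single mutant allele and say nothing of pooling, and AtSF1 itself is not analysed here, so its level gives no check of the genotype labels.

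Abscisic acid is a plant hormone whose level climbs when water is short. It binds receptors that block protein phosphatases, which frees kinases to activate transcription factors of the ABF family at promoters such as those of RAB18 and RD29B. Cold acts largely through the CBF transcription factors, which switch on COR15A, COR15B, COR47, LTI30 and RD29A. Dehydrins and other late embryogenesis abundant proteins are very hydrophilic, gather in drying seeds and in stressed leaves, and shield membranes and enzymes when cells lose water.

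The arrays were scaled to nearly the same trimmed mean, and their medians ran from 165 to 195. The second Col-0 array and the third atsf1-2 array stood apart. Their ratios of 3' to 5' actin signal were 2.14 and 2.47, against 3.36 to 3.63 on the other arrays. Their array weights, estimated by limma, were 0.53 and 0.31 against 0.82 to 2.45. A lower ratio means more 5' signal for the same 3' signal. For GAPDH and ubiquitin only the Col-0 array lay outside the others. The log2 ratios of GAPDH were -0.16 and 0.13, against 0.054 to 0.20 on the others. Those of ubiquitin were 0.29 and 0.39, against 0.38 to 0.55. The root genes EXPA7, EXPA18 and PYK10 gave a summed signal of 15415 to 17545 in Col-0 and 15906 to 16811 in atsf1-2, and none of the 3 passed the test (log2 fold changes from -0.064 to -0.0061). LHCB4.3, an antenna protein and the only gene of 10 in the green tissue list with a probe set of its own in the annotation, was present on every array (1110 to 1604 in Col-0 and 1812 to 2140 in atsf1-2). None of 9 seed storage genes has such a probe set, so carry-over of seed transcripts was not tested.

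Of the 8 genes, 5 passed the filter on dim signals and were tested: LTI30, COR47, LEA4-5, RD29A and RAB18. LTI30 rose in atsf1-2 and RAB18 fell, so that dehydrins of the same family moved in opposite directions. The call of LTI30 held under 15 of 16 alternative ways of processing and that of RAB18 under 6 of 16. As background, 3.00% of the 13648 tested probe sets passed as higher in the mutant and 5.19% as lower (adjusted p under 0.05, limma), or 8.19% in either direction. The arrays of the genotypes did not overlap for 3 of the 8 genes, of which LTI30 and COR47 lay higher and RAB18 lower in atsf1-2. Among all tested probe sets 12.1% were above and 19.2% below without overlap, 31.3% together. RD29B, COR15A and COR15B lay below the filter and overlapped, and of all probe sets below it 11.7% did not overlap. The log2 fold changes of the 8 genes lay above 0 for 5 and below 0 for 3, where 41.5% of tested probe sets lay above 0. This count includes the genes below the filter, which that share leaves out. Among them are COR15B and RD29B, whose sign turned in some alternatives. The median of the 8 was 0.092, where the median of all probe sets without a filter was -0.049.

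**Figure D1:**
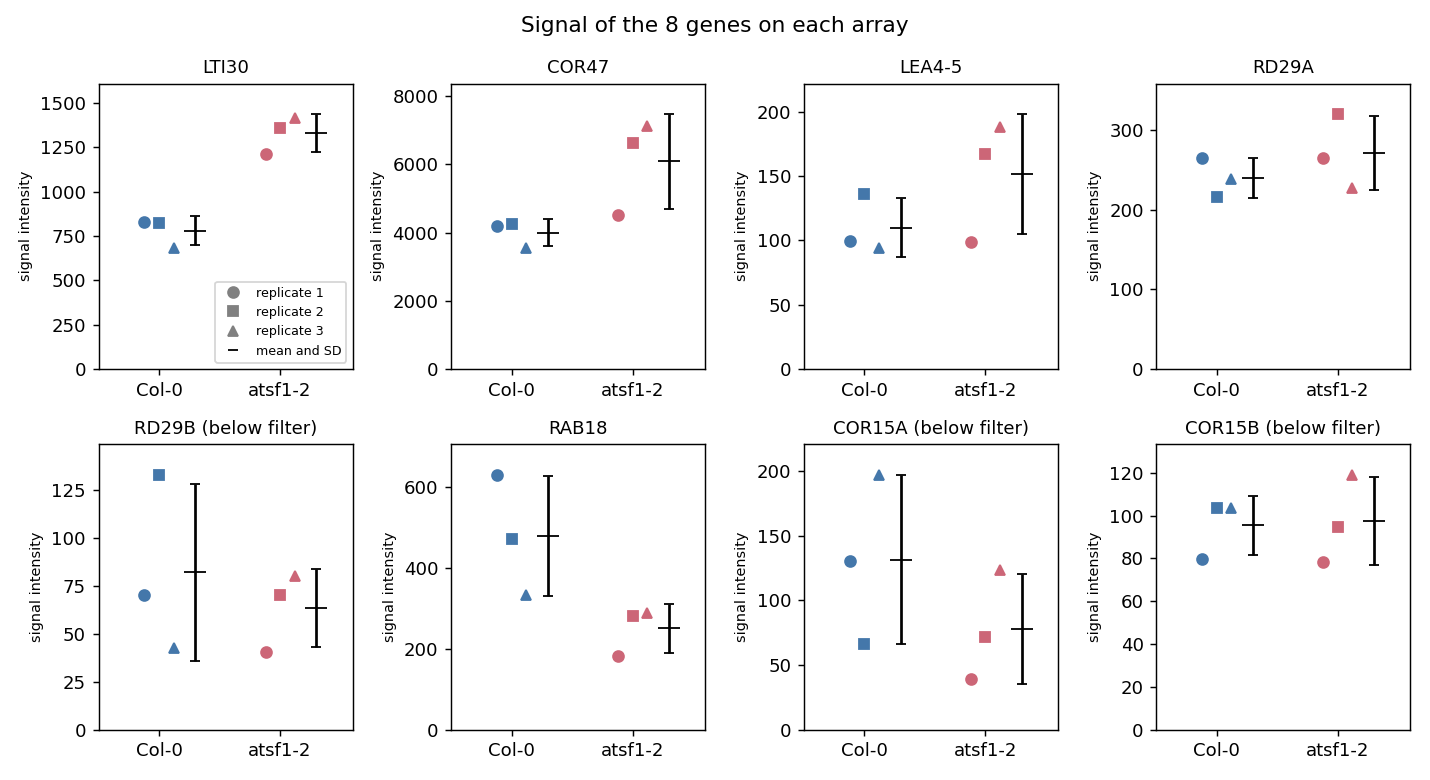
Signal intensity (linear scale from 0) of each of the 8 genes on the 3 Col-0 and 3 atsf1-2 arrays, with marker shapes for replicate numbers and black bars for the mean and SD of each genotype. The genotypes do not overlap for LTI30 and COR47, which are higher in atsf1-2, and for RAB18, which is lower there.

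LTI30 (AT3G50970, probe set 252102_at), a dehydrin known as a cold-induced protein that binds membranes, had signals of 829, 824 and 684 on Col-0 replicates 1, 2 and 3. In atsf1-2 its signals were 1209, 1360 and 1416. Every mutant array lay above every Col-0 array, by a margin wider than the spread within either genotype. The log2 fold change of LTI30 was 0.77 ± 0.14 (SE), or 1.71-fold, with a 95% confidence interval of 0.47 to 1.08 (limma, p adjusted over all tested probe sets = 0.00978). Only 1.41% of tested probe sets had a higher log2 fold change, and its SD within genotypes on the log2 scale, 0.14, was below the median of 0.20 over tested probe sets. In whole seedlings, fewer cells of a type and less RNA per cell cannot be told apart, here and for every gene below. Without Col-0 replicate 3, the lowest Col-0 array for LTI30, the log2 fold change was 0.68 and the call ended (adjusted p = 0.0514). Without both arrays that stood apart it was 0.77 and passed (adjusted p = 0.0213).

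COR47 (AT1G20440, probe set 259570_at), an acidic dehydrin induced by cold and dehydration, gave 4204, 4251 and 3531 in Col-0. Its signals in atsf1-2 were 4511, 6632 and 7113. The genotypes did not overlap, but atsf1-2 replicate 1 lay close to the Col-0 arrays. The log2 fold change was 0.58 ± 0.17 (SE), or 1.5-fold, with an interval of 0.22 to 0.95, and it did not pass (adjusted p = 0.0554). Without atsf1-2 replicate 1 the log2 fold change was 0.79 and passed (adjusted p = 0.0235). After quantile normalization it was 0.44 (adjusted p = 0.130), and the lowest mutant value then lay within the Col-0 range. COR47 signals were in the top of the distribution, above 96.2% to 98.3% of the probe sets on each array.

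RAB18, a dehydrin used as a marker of abscisic acid, went the other way. Its signals in Col-0 were 630, 471 and 333, and in atsf1-2 they were 181, 280 and 289. All mutant arrays lay below all Col-0 arrays, while the Col-0 arrays themselves differed 1.89-fold between the lowest and the highest. RAB18 fell by 0.92 ± 0.25 (SE) on the log2 scale, to 0.53 of the Col-0 level, with an interval of -1.46 to -0.37 (adjusted p = 0.0463). Only 1.71% of tested probe sets had a lower log2 fold change. The call lay near the threshold and was lost in several fits that left out 1 array. Such fits have fewer arrays, and over all tested probe sets they called 151 to 777 as lower, against 709 with all arrays. Dropping the first Col-0 array, which has the highest RAB18 signal, gave a log2 fold change of -0.69 with an adjusted p of 0.177, and dropping the second gave -0.90 with 0.117. Dropping the first mutant array, which has the lowest signal, gave -0.70 with an adjusted p of 0.148, and dropping the second gave -1.01 with 0.0577. With the replicate number as a block the adjusted p was 0.0989.

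**Figure D2:**
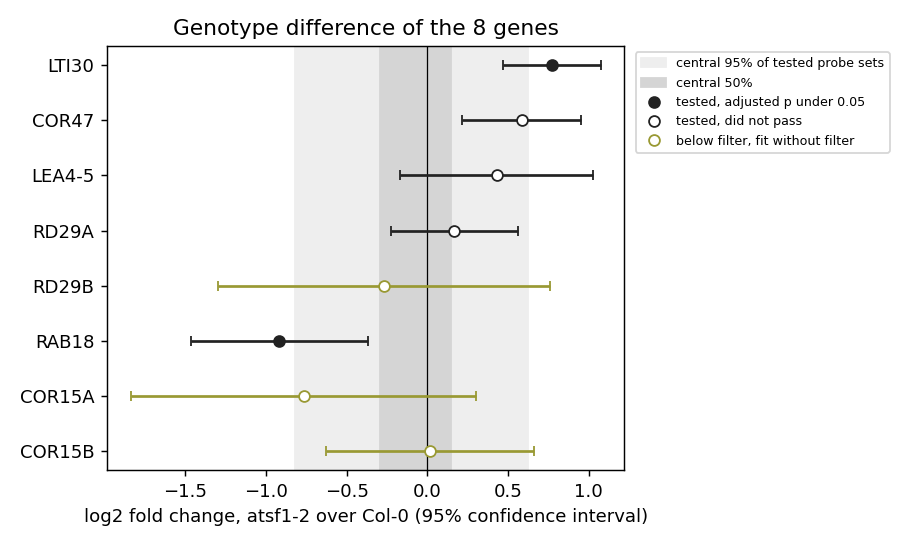
Log2 fold changes of atsf1-2 over Col-0 for the 8 genes, with 95% confidence intervals from limma, over grey bands for the central 50% and 95% of tested probe sets (the wider band runs from -0.82 to 0.63). LTI30 lies above the wider band and RAB18 below it, and the 3 genes below the filter have intervals that span 0.

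The opposite directions of the dehydrins can be set against each other within each array. This removes a scaling factor shared by all probe sets of an array, but not differences that depend on signal level. The mean percentiles of signal were 84.4 for LTI30, 97.3 for COR47 and 63.9 for RAB18. The log2 ratio of LTI30 to RAB18 ran from 0.40 to 1.04 on the Col-0 arrays and from 2.28 to 2.74 on the atsf1-2 arrays, a mean difference of 1.69. The log2 ratio of COR47 to RAB18 ran from 2.74 to 3.40 in Col-0 and from 4.56 to 4.64 in atsf1-2, a mean difference of 1.5. The level of such a ratio depends on the probes, so only its difference between genotypes can be read. Both pairs were chosen after their values were seen, and these ratios are given without a test. Each gene already separated the genotypes, in opposite directions within a pair, so the ratios had to separate as well. Their mean differences follow from the fold changes above and add no support to them. LTI30 and COR47 moved together within Col-0, where their log2 ratio had an SD of 0.015 (n = 3), and less closely in atsf1-2, where it had an SD of 0.24 (n = 3).

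LEA4-5 (AT5G06760, probe set 250648_at), a late embryogenesis abundant protein that protects enzymes in drying cells, was dim. Its signals were 99.3, 136 and 93.9 in Col-0 and 98.6, 167 and 188 in atsf1-2. Of the mutant arrays, replicates 2 and 3 lay above the Col-0 range and replicate 1 lay inside it. The log2 fold change of 0.43 ± 0.27 (SE) did not pass (adjusted p = 0.347), and its interval of -0.17 to 1.03 holds both 0 and the value of LTI30. It ran from 0.25 without atsf1-2 replicate 3 to 0.71 without atsf1-2 replicate 1.

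RD29A, a desiccation gene with promoter elements for both the CBF factors and the abscisic acid pathway, gave 266, 216 and 239 in Col-0 and 265, 320 and 228 in atsf1-2. The genotypes overlapped, with the lowest mutant array below the highest Col-0 array. The log2 fold change was 0.17 ± 0.18 (SE) and did not pass (adjusted p = 0.593). Its interval of -0.23 to 0.56 leaves out a rise of the size measured for LTI30 and a fall of the size measured for RAB18. It ran from 0.040 without atsf1-2 replicate 2 to 0.28 without atsf1-2 replicate 3, and was 0.31 after quantile normalization.

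The probe sets of RD29B, COR15A and COR15B lay below the filter, with geometric mean signals of 66.9, 91.5 and 95.4 against a lowest kept value of 104.4. They were therefore read from the fit without a filter, in which 3.10% of 22746 probe sets passed, and none of the 3 did. RD29B, a close relative of RD29A that responds mainly to abscisic acid, had signals of 70.4, 133 and 42.6 in Col-0 and 40.5, 70.0 and 79.8 in atsf1-2. Its Col-0 arrays differed 3.12-fold among themselves, and its log2 fold change of -0.27 ± 0.47 (SE, adjusted p = 0.827) turned positive when the second Col-0 array (0.16) or the first mutant array (0.024) was left out. No direction can be given for it.

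COR15A (AT2G42540, probe set 263497_at), which stabilises chloroplast membranes in freezing, had signals of 130, 66.2 and 197 in Col-0 and 39.0, 71.7 and 123 in atsf1-2. The genotypes overlapped widely, and the arrays within a genotype differed by more than the genotypes did, 2.97-fold in Col-0 and 3.16-fold in atsf1-2 against a mutant level of 0.59 of that in Col-0. The log2 fold change of COR15A was -0.77 ± 0.49 (SE, adjusted p = 0.461). Without atsf1-2 replicate 1 it shrank to -0.34, and without Col-0 replicate 2 it was -1.19. With array weights it was -1.32 (adjusted p = 0.0621) and with both arrays that stood apart left out -1.60 (adjusted p = 0.0666), so its size rests on which arrays are counted. COR15B (AT2G42530, probe set 263495_at), the neighbouring gene in the RefSeq table of assembly TAIR10.1 and a related chloroplast protein, was steadier. Its signals were 79.6, 103 and 103 in Col-0 and 78.2, 94.9 and 119 in atsf1-2, with a log2 fold change of 0.017 ± 0.29 (SE, adjusted p = 0.985) and an interval of -0.63 to 0.66. RD29A and RD29B are likewise neighbours in that table, and neither passed.

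**Figure D3:**
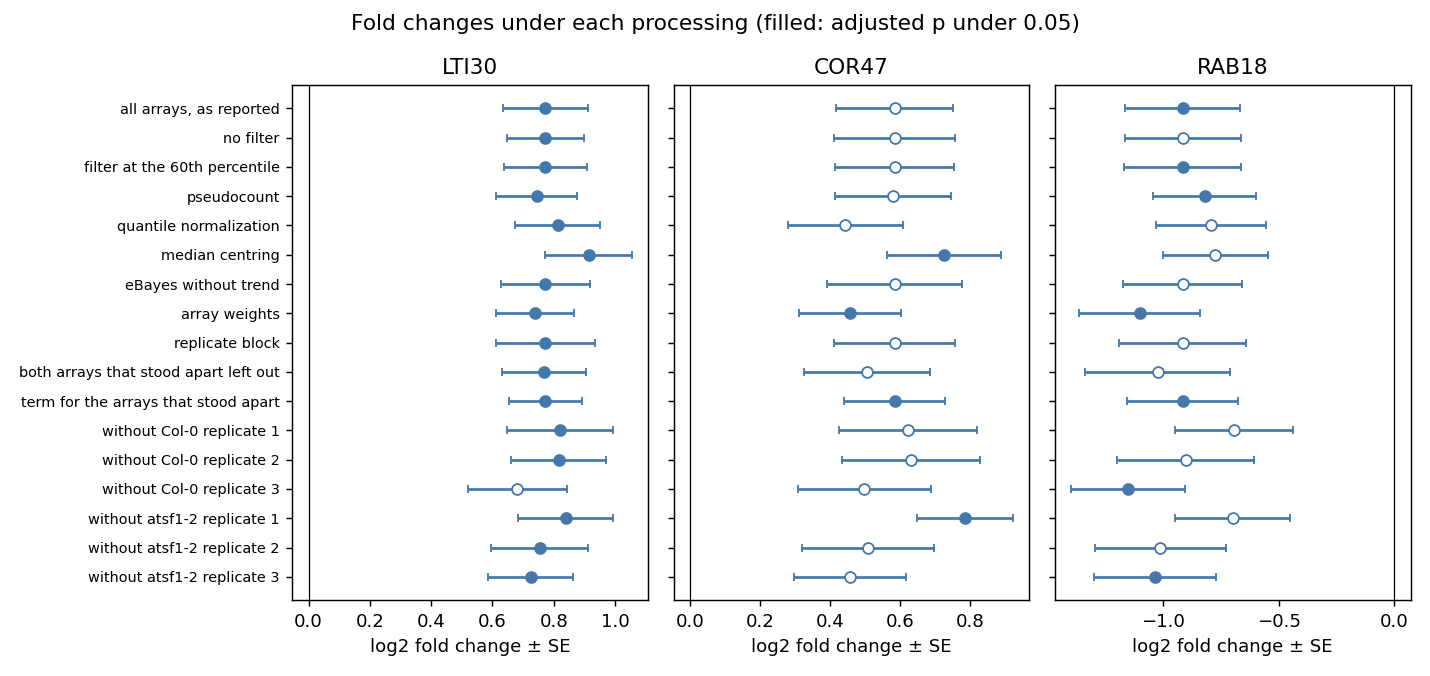
Log2 fold changes with SE for LTI30, COR47 and RAB18 with all arrays as reported and under 16 other ways of processing (filled points have a adjusted p under 0.05). LTI30 passed in all but the fit without Col-0 replicate 3, COR47 passed in 4 of the 16 alternatives, and RAB18 in 6 of them, and no fit turned a direction.

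Most of the 8 genes also had the same order among the mutant arrays, which the genotype comparison does not show. Within atsf1-2, 7 of the 8 genes had their lowest signal on replicate 1 and their highest on replicate 3, and RD29A was the exception. Over all tested probe sets, 18.9% had this order, 32.5% were lowest on replicate 1 and 36.3% were highest on replicate 3. With each array centred on its median the 7 genes kept the order, and the share of tested probe sets with it was 14.0%. After quantile normalization 6 of the 8 had it, against 18.8% of tested probe sets. These shares cover tested probe sets only, while 3 of the 8 genes lay below the filter. Replicate 3 of atsf1-2 is among the arrays that stood apart and had the lowest array weight, 0.31. Replicate 1 had the lowest median signal, 165. The part of these array differences in the order was not tested.

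For RAB18, the deviation from the genotype mean on atsf1-2 replicate 1 was -0.43 on the log2 scale, against -0.13 for LTI30, -0.40 for COR47, -0.56 for LEA4-5 and -0.85 for COR15A. The arrays are the same for all 8 genes, so these are not independent observations, and the order is a description with no test. In Col-0 the lowest array was replicate 3 for 5 genes, replicate 2 for 2 and replicate 1 for 1. Of tested probe sets, 32.2%, 41.3% and 26.5% were lowest on these arrays. The SD within genotypes on the log2 scale ran from 0.14 for LTI30 to 0.81 for COR15A.

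**Figure D4:**
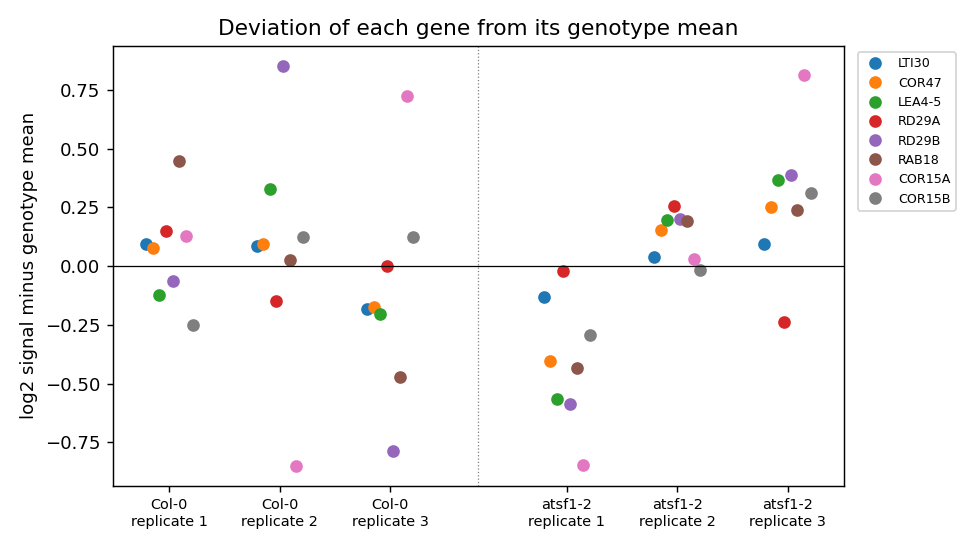
Log2 signal minus the mean of its genotype for each of the 8 genes on each array. On atsf1-2 replicate 1 all 8 points lie below 0, and on atsf1-2 replicate 3 all but that of RD29A lie above 0.

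The rest of the cold and abscisic acid pathways could be read for few genes, because the annotation pairs only 20 of 127 other listed loci with a probe set of their own, and 3 of these were bright enough to test. Of the 3, 1 rose, 1 fell and 1 did not pass, where 3.00% of all tested probe sets passed as higher and 5.19% as lower. With 3 genes these counts are a description only. DI21 (AT4G15910), a drought-induced protein of the late embryogenesis abundant group, rose, with signals of 1874, 2195 and 1651 in Col-0 and 3628, 3003 and 4155 in atsf1-2. The genotypes of DI21 did not overlap, and the mutant was 0.91 ± 0.15 (SE) higher on the log2 scale (adjusted p = 0.00730), a call that held under all 16 alternatives (adjusted p up to 0.0403). DI21 thus changed in the direction of LTI30 and against that of RAB18.

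ZAT10 (AT1G27730, STZ in RefSeq), a zinc finger repressor induced by cold, drought and abscisic acid, fell. Its signals were 1544, 2091 and 957 in Col-0 and 437, 651 and 748 in atsf1-2, with no overlap. ZAT10 fell by 1.29 ± 0.27 (SE) on the log2 scale (adjusted p = 0.0191). Dropping the first Col-0 array ended the call of ZAT10 (adjusted p = 0.0649), as did dropping the second Col-0 array (0.0699) or the first mutant array (0.0754). The dehydrin HIRD11 (AT1G54410) did not pass, with 2387, 2844 and 2186 in Col-0 against 1600, 2419 and 4263 in atsf1-2 and a log2 fold change of 0.051 ± 0.28 (SE, adjusted p = 0.931). Its mutant arrays covered a wider range than its Col-0 arrays, with replicate 1 lowest and replicate 3 highest. ZAT10 had the same order among its mutant arrays, while DI21 was lowest on replicate 2. Of all tested probe sets 18.9% had this order.

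Listed by role, the dehydrins had 3 tested of 10, of which LTI30 rose and COR47 and HIRD11 did not pass, and RAB18 was counted only through the list of the 8 genes. The other late embryogenesis abundant proteins had 2 tested of 25, of which DI21 rose and LEA4-5 did not pass. The cold regulators had 1 tested of 19, ZAT10, which fell. Over all tested probe sets 8.19% passed in either direction, and each list has too few tested genes for a comparison with that share. No gene of the lists for abscisic acid synthesis and breakdown, its receptors, its phosphatases and kinases or its transcription factors could be tested, nor any of the 22 cold and drought markers under the annotation's own names. The state of the hormone pathway upstream of RAB18 is therefore not analysed here.

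The ratio of 3' to 5' control signal climbs as 5' signal is lost, so a higher ratio goes with less intact RNA. The mean ratios were higher in atsf1-2 for all 3 control transcripts, in a design too small for an exact test to pass. The log2 ratio of 3' to 5' signal of actin was 1.55 ± 0.39 in Col-0 and 1.65 ± 0.30 in atsf1-2 (SD, n = 3; exact permutation p = 0.6). The same log2 ratio was 0.0018 ± 0.14 in Col-0 and 0.14 ± 0.059 in atsf1-2 for GAPDH, and 0.36 ± 0.061 and 0.46 ± 0.080 for ubiquitin (SD, n = 3; exact permutation p = 0.2 for each, two-sided, where 3 against 3 cannot go below 0.1). LHCB4.3 rose by 0.56 ± 0.15 (SE) on the log2 scale (adjusted p = 0.0487), and lost its call under 11 of 16 alternatives. The part of either in the differences of LTI30, RAB18, DI21 and ZAT10 was not tested.

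Genes with the most similar pattern were sought over the 6 arrays among 7274 tested probe sets paired with 1 gene. The mean standardised profile of the 5 tested genes had its highest value on atsf1-2 replicate 2 and its lowest on Col-0 replicate 3. It correlated with COR47 at Pearson's r of 0.94, with LEA4-5 at 0.84 and with LTI30 at 0.81. The r was 0.50 for RD29A and -0.11 for RAB18. Each of these 5 genes is part of the mean, which raises its own r, and RAB18 did not follow the mean even so. The nearest other genes were AT2G27740 (r = 0.99), RD2 (AT2G21620, r = 0.99), named for its response to desiccation, AT4G17840 (r = 0.98) and ATJ1 (AT1G28210, r = 0.98), a co-chaperone with a J-domain. With 6 arrays and 7274 candidates such values are a description only. None of these 4 genes passed the genotype test, with log2 fold changes from 0.12 to 0.40.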

How the data were processed

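Biotin-labelled material from 300 ng of total RNA per sample went onto ATH1 arrays, per the labels' protocols. Each array was summarised by the authors into linear signal intensities per probe set, and the submitters' processing notes name MAS5 and Affymetrix Expression Console 1.2. How background and detection were set is not given in the sources used here. Precision is limited by having 3 arrays per genotype.

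Of 22810 probe sets, 64 controls were left out. The deposited intensities were taken to log2 without further scaling, probe sets with a mean log2 signal at or above the 40th percentile were kept (13648), and atsf1-2 was set against Col-0 by limma 3.58.1 (R 4.3.3, lmFit, eBayes with trend, two-sided, Benjamini-Hochberg over all tested probe sets, threshold 0.05). Genes below the filter were read from the fit without it. Names come from the platform annotation (1 gene for 13513 probe sets, several for 503, none for 8730), updated through gene identifiers to RefSeq TAIR10.1 for 13436. Gene coordinates were used only to find neighbouring genes, and no sequences are used here.

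The 8 genes, the 11 gene lists (157 loci) and the alternatives were chosen with earlier results of these data known. All 8 genes are named, and of each list the members past the threshold (up to 6) or up to 2 with the smallest p, and of the tissue marker lists all tested members. Replicate numbers are shared by the genotypes, but nothing says that they pair samples, and same-numbered arrays deviated from their genotype means with correlations of 0.10, -0.19 and -0.21, so the main fit has no block. The alternatives were no filter, the 60th percentile, 38.4 added to each signal (the 25th percentile) as a pseudocount, quantile normalization, median centring, eBayes without trend, array weights, a replicate block, leaving out each array, and leaving out or modelling the 2 arrays that stood apart.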

Additional observations from a re-analysis of the deposited data

How the results depend on the processing

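The calls of LTI30, COR47 and RAB18 each changed in at least 1 alternative, but their directions in none. LEA4-5, RD29A and COR15A kept their direction and did not pass under any of the 14 or 15 alternatives that gave a value. The 60th percentile filter removed LEA4-5 and RD29A and so gave them no value. LTI30 lost its call only without Col-0 replicate 3, and leaving out single arrays gave 0.68 to 0.84. COR47 passed with median centring (0.73), array weights (0.46), a term for the arrays that stood apart (0.58) and without atsf1-2 replicate 1, with 0.46 to 0.79 without single arrays. RAB18 lost its call with no filter, by eBayes without trend and with the replicate block (-0.92 in each), with quantile normalization (-0.79), median centring (-0.78) and both arrays that stood apart left out (-1.02), and ran from -1.15 to -0.69 without single arrays. RD29B turned positive in 2 fits (leaving out single arrays gave -0.66 to 0.16, with 0.16 and 0.024 above 0). COR15B turned negative with array weights (-0.034), with both arrays that stood apart left out (-0.076), without Col-0 replicate 1 (-0.11) and without atsf1-2 replicate 3 (-0.14), and ran from -0.14 to 0.16 without single arrays.

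Of the 8 genes, 2 were higher with median centring, array weights or the term for the arrays that stood apart, and 0 to 2 without single arrays. None (0) was lower with no filter, quantile normalization, median centring, eBayes without trend, the replicate block or both arrays that stood apart left out (RAB18 had an unadjusted p of 0.00356 in the limma fit reported), and 0 to 1 without single arrays. Over all probe sets 409 were higher and 709 lower as reported. The higher numbered 755 with median centring, 267 with no filter, 947 with array weights, 271 by eBayes without trend, 171 with the replicate block, 892 with the term, and 130 to 463 without single arrays. The lower numbered 362 with median centring, 439 with no filter, 1713 with array weights, 263 with the replicate block, 1511 with the term, and 151 to 777 without single arrays. The higher share was 36.6% as reported, 48.5% after quantile normalization and 67.6% with median centring, which moved the median log2 fold change by 0.14. What causes these shifts was not tested.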

Other observations

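Of the listed dehydrins and other late embryogenesis abundant proteins outside the 8 genes, 17 had a probe set of their own below the filter, with signals between 0.97 and 142 on single arrays. None (0) passed in the limma fit without a filter, where 3.10% of all probe sets passed. The genotypes did not overlap for 2 of the 17, against 11.7% of all probe sets below the filter, and these 2 are named here after their values were seen. LEA4-1 (AT1G32560), related to LEA4-5, had signals of 41.3, 41.1 and 37.3 in Col-0 and 12.2, 2.84 and 8.68 in atsf1-2 (limma adjusted p = 0.0800 without a filter). AT2G03850 had signals of 2.45, 6.42 and 7.56 in Col-0 and 12.6, 17.2 and 57.9 in atsf1-2 (limma adjusted p = 0.200 without a filter). At such signals the size of a difference depends on how background was treated.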
